A study of Triticum aestivum and Triticum turgidum subsp. durum with 27 samples.

Results

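CBL-interacting protein kinases (CIPKs) are plant serine/threonine kinases that are switched on by calcium. When a stress raises calcium in the cell, a calcineurin B-like protein (CBL) binds the calcium through its EF-hands, docks on the regulatory tail of a CIPK and releases its kinase domain, and the pair then phosphorylates channels and transporters at the plasma membrane or the vacuole. Type 2C protein phosphatases (PP2Cs) bind several CIPKs and oppose them, and the kinase family as a whole is known from Arabidopsis for its part in salt, potassium, nitrate and drought signalling. Here the CIPK transcripts of wheat glumes, the green bracts that enclose the floret, were followed through drought in 3 genotypes. The probe sets were those whose best Arabidopsis match in the study's list of drought-regulated probe sets was described as CBL-interacting. Of 61179 wheat probe sets on the array, 1 met this rule, a match to Arabidopsis CIPK10 (the CIPK10 match below). Only the first 1420 probe sets of that list were used here, and 1615 further rows were not. The study's text also names 1 further probe set as CIPK9, and this one (the CIPK9 match) was described beside it, although its row is not among those used here. Each is the single probe set of its UniGene cluster on the array. Both had been selected by the study for differing between treatments on these same arrays, so that their differences between CTRL, MS and SS plants are given below as a description with no test. The study's text also places both in 1 cluster of probe sets, grouped by how alike their expression was over these samples, so that what both share in pattern is no finding here. The CIPK9 match was taken from that cluster alone, and its differences between genotypes are given without a test as well. For the CIPK10 match, which the drought list and its name chose, the average differences of Creso from each bread wheat over the 3 treatments were tested. The study's text had, however, already described this cluster as higher in Creso than in CS in CTRL plants. The direction of these tests was thus known beforehand. The same passage describes the cluster as slightly raised by drought in bread wheat only, so that this drought course too was known.

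The groups were Creso, a tetraploid durum wheat with the A and B genomes, CS_5AL-10, a line of Chinese Spring that lacks a distal piece of the long arm of chromosome 5A, and CS, the hexaploid bread wheat Chinese Spring with the A, B and D genomes. Each was sampled as CTRL (kept at a soil water content of 28%), MS (mild stress, soil dried to 18%) and SS (severe stress, 12.5%), with watering stopped 3 days post anthesis in the stressed plants. This gave 9 groups of 3 Affymetrix Wheat Genome Arrays, 27 in all, which the study describes as biological triplicates, and with 3 arrays a group precision is limited. By the labels Creso was sampled 7 days after anthesis and both bread wheats 10 days after, and the study's text gives later days for each, so that stage, species and the match of the probes to each genome cannot be told apart where Creso is compared. CS_5AL-10 and CS share species, labelled stage and D genome and differ by the deletion, in 1 line. Values are MAS5 intensities, linear units of probe brightness scaled by the authors to the same trimmed mean on every array. Differences are on the scale of log2(intensity + 16) with all arrays brought to a common median, with the standard error (SE) of a limma fit over all 27 arrays. The added 16 makes differences of dim probe sets too small.

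The tissue label was checked against marker lists, and the green tissue, endosperm and, in Creso, pollen lists varied with the comparisons below. On every array all 4 pollen and anther probe sets exceeded the median intensity, as did 31 to 38 of the 38 green tissue probe sets. All 4 pollen and anther probe sets come from the drought-selected list, so their level and drought course are no independent check of the tissue. The green tissue list, 35 of whose 38 probe sets come from the drought-selected list, had a summed intensity of 319700 to 410900 in Creso CTRL plants, 351400 to 403100 in Creso MS and 364300 to 398500 in Creso SS. In CS_5AL-10 the sum was 128800 to 166100 for CTRL, 222100 to 233300 for MS and 304500 to 342400 for SS, and in CS it was 149500 to 240200, 269700 to 353500 and 307400 to 420700 for the same treatments. The 13 endosperm storage protein probe sets, gliadins, glutenins and avenin-like proteins known from the grain, varied most between arrays of 1 group. Their mean log2 intensity was 5.02 to 6.43 on the Creso arrays other than MS replicate 1, which was at 9.09. On the bread wheat arrays it ran between 5.62 and 11.62. On 4 arrays (Creso MS replicate 1, CS_5AL-10 SS replicate 2, CS MS replicate 3 and CS SS replicate 2) it lay over 3 log2 units from both other arrays of the group. Results for the CIPK probe sets are given with and without these 4 arrays where it matters. In samples of a whole organ, fewer cells of a type and less RNA per cell cannot be told apart.

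The CIPK10 match was high in durum wheat whatever the water supply, low in both well watered bread wheats, and in CS its signal increased with each step of drought. In CS_5AL-10 the MS arrays overlapped the CTRL arrays, and the SS arrays were spread widely. Mean intensity ran from 195.6 in CS_5AL-10 CTRL to 3973 in Creso SS.

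In Creso the CIPK10 match read 3230, 2604.7 and 3345 under CTRL, 2544.5, 3819.9 and 2493.2 under MS and 4580, 3124.4 and 4215.9 under SS. The 3 treatments overlapped, with means of 3060 ± 398.4, 2953 ± 751.6 and 3973 ± 757.5 (SD, n = 3 each). The difference of MS from CTRL was 0.00 on the log2 scale (SE 0.38) and that of SS from CTRL was 0.50 (SE 0.38). The first of these changed sign between -0.28 and 0.19 when single arrays were left out, the lowest without MS replicate 2 and the highest without MS replicate 1.

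In CS_5AL-10 the same probe set read 235.86, 138.53 and 212.43 under CTRL, 164.51, 160.4 and 337.67 under MS and 599.95, 1266.9 and 262.19 under SS. All 3 SS arrays lay above all 3 CTRL arrays, which 16.5% of the tested probe sets also did, but the lowest SS array lay below the highest MS array. The means were 195.6 ± 50.8, 220.9 ± 101.2 and 709.7 ± 511.3 (SD, n = 3 each). On the log2 scale MS differed from CTRL by 0.08 and SS by 1.62 (SE 0.38 each), and SS from MS by 1.54. These values rested on single arrays. The MS difference lay between -0.28 (without MS replicate 3) and 0.29 (without MS replicate 1). The SS difference was 1.08 without SS replicate 2, the array with the highest endosperm signal of its group, and 2.15 without SS replicate 3.

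In CS the CIPK10 match read 307.54, 228.01 and 231.66 under CTRL, 887.88, 1002.6 and 830.8 under MS and 2545.1, 1212.4 and 2027.2 under SS. The 3 treatments were fully separated, in the order of the stress. Of the tested probe sets, 12.4% were higher in MS than in CTRL with no overlap, 11.6% higher in SS than in MS and 17.4% higher in SS than in CTRL. The means were 255.7 ± 44.9, 907.1 ± 87.5 and 1928 ± 671.8 (SD, n = 3 each), which makes the MS mean 3.55 times and the SS mean 7.54 times that of CTRL, against 1.13 and 3.63 times in CS_5AL-10 and 0.965 and 1.30 times in Creso. On the log2 scale MS differed from CTRL by 1.95 and SS by 2.84 (SE 0.38 each), and leaving out 1 array at a time gave 1.84 to 2.12 and 2.62 to 3.14. Without the 4 arrays named above the values were 1.96 and 3.14 (SE 0.34 each).

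**Figure D1:**
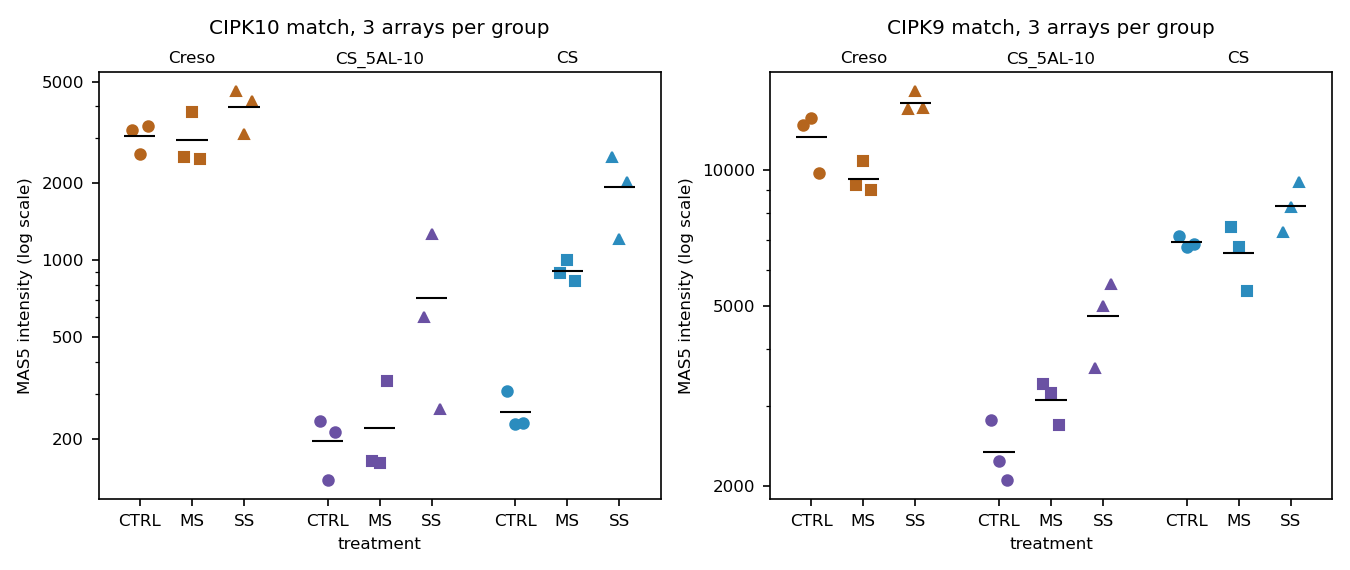
MAS5 intensity on a log axis of the CIPK10 match (left) and the CIPK9 match (right) on each array, by genotype and treatment (CTRL circles, MS squares, SS triangles; black lines are group means). The CIPK10 match separates CTRL, MS and SS in CS only, while the CIPK9 match is lowest in CS_5AL-10, with 1 SS array at 5572.6 above the lowest CS array at 5389.2.

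In Creso the SS response of the CIPK10 match was smaller than in CS (difference of the responses -2.34, SE 0.54) and than in CS_5AL-10 (-1.12, SE 0.54). The response of CS_5AL-10 differed from that of CS by -1.87 at MS and by -1.22 at SS (SE 0.54 each). In well watered plants Creso exceeded CS by 3.75, in MS plants by 1.80 and in SS plants by 1.41 (SE 0.38 each), so that the gap between durum and bread wheat was narrowest under severe stress. CS_5AL-10 differed from CS by -0.35 in CTRL, where their arrays overlapped, by -2.22 in MS and by -1.57 in SS.

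**Figure D2:**
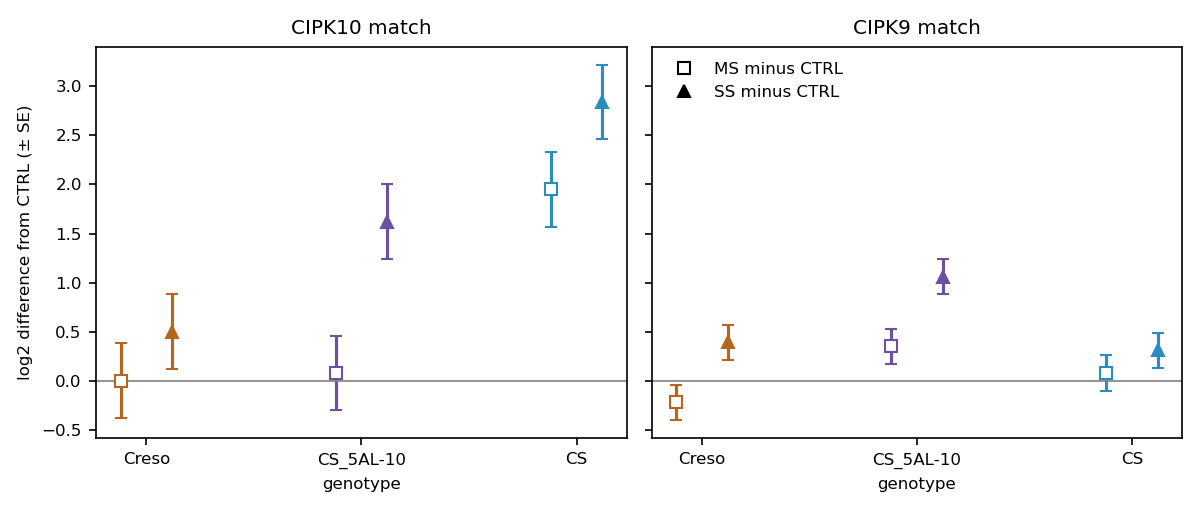
Log2 difference of MS (open squares) and SS (filled triangles) from CTRL for the CIPK10 match (left) and the CIPK9 match (right) in each genotype, with bars of 1 SE. For the CIPK10 match the SS difference is 0.50 in Creso, 1.62 in CS_5AL-10 and 2.84 in CS, while for the CIPK9 match it is 0.39, 1.06 and 0.31 in the same genotypes.

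The CIPK9 match, whose Arabidopsis counterpart is known for its part in potassium homeostasis, had a different pattern. It was bright in every group, with the highest group means in Creso and the lowest in CS_5AL-10. In Creso it read 12556, 12979 and 9849.3 under CTRL, 9255.2, 10421 and 8990.8 under MS and 13621, 14892 and 13656 under SS. The SS arrays lay above all others of this genotype, and MS overlapped CTRL. Of the tested probe sets, 15.9% were higher in Creso SS than in CTRL with no overlap and 12.1% higher in SS than in MS.

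In CS_5AL-10 the CIPK9 match read 2794.9, 2268.3 and 2060.3 under CTRL, 3356.2, 3206.8 and 2718.8 under MS and 3641.6, 4989.2 and 5572.6 under SS. Here the SS arrays were above those of both other treatments, as for 8.19% of tested probe sets in SS against MS, and CTRL and MS overlapped. In CS it read 7137.5, 6749.2 and 6837.3 under CTRL, 7460.3, 6739.6 and 5389.2 under MS and 7259.5, 8249.1 and 9402.8 under SS, where SS was above CTRL but overlapped MS. The SS means were 14060 ± 723.9 in Creso, 4734 ± 990.4 in CS_5AL-10 and 8304 ± 1073 in CS, against CTRL means of 11790 ± 1698, 2374 ± 378.6 and 6908 ± 203.6 (SD, n = 3 each). On the log2 scale SS differed from CTRL by 0.39 in Creso, 1.06 in CS_5AL-10 and 0.31 in CS, and MS by -0.22, 0.35 and 0.08 (SE 0.18 each).

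Ordered from low to high, the 9 group means of the CIPK10 match were CS_5AL-10 CTRL, CS_5AL-10 MS, CS CTRL, CS_5AL-10 SS, CS MS, CS SS, Creso CTRL, Creso MS and Creso SS on the centred log2 scale. Neighbours in this order overlapped in their arrays except CS MS with CS SS and CS SS with Creso CTRL. For the CIPK9 match the order was CS_5AL-10 CTRL, MS and SS, then CS CTRL, MS and SS, then Creso MS, CTRL and SS by the same scale, and the neighbours without overlap were CS_5AL-10 MS with SS, CS_5AL-10 SS with CS CTRL and Creso CTRL with SS.

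Averaged over the 3 treatments, the CIPK10 match was 4.99-fold higher in Creso than in CS (log2 difference 2.32, SE 0.22, limma with Benjamini-Hochberg adjustment over 34089 probe sets, adjusted p = 2.4e-09) and 13-fold higher in Creso than in CS_5AL-10 (3.70, SE 0.22, adjusted p = 3.4e-13). As the study had already described its cluster as higher in Creso than in CS in CTRL plants, these tests are no independent evidence of the direction. The stressed arrays, on which the study selected the CIPK10 match, also enter both averages. The p-values are therefore no independent evidence of a genotype difference either. On single arrays the lowest Creso value of 2493.2 lay above all 9 CS_5AL-10 arrays but below the highest CS array, SS replicate 1 at 2545.1. A change between Creso and bread wheat was common on this array, since 13.1% of tested probe sets were called higher in Creso than in CS (adjusted p under 0.05, at least 2-fold) and 15.9% higher than in CS_5AL-10. Between both bread wheats the average difference of the CIPK10 match, CS_5AL-10 minus CS, was -1.38 (SE 0.22). The stressed arrays, on which the study selected it, carried this average, since CTRL plants differed by -0.35 (SE 0.38) with overlapping arrays against -2.22 in MS and -1.57 in SS, and it is therefore given without a test. Without the 4 arrays named above it was -1.66 (SE 0.20).

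For the CIPK9 match the average difference of CS_5AL-10 from CS was -1.18 (SE 0.10), with -1.51 in CTRL, -1.25 in MS and -0.77 in SS (SE 0.18 each). Its level in Creso was 4.31 times that in CS_5AL-10 (log2 difference 2.11, SE 0.10), and none of the 9 arrays of either genotype overlapped, as for 10.1% of tested probe sets. Against CS it was 1.91 times as high in Creso (0.93, SE 0.10), and the lowest Creso array at 8990.8 lay below the highest CS array at 9402.8.

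The marker lists that varied between arrays were set beside the CIPK10 match. In CS the endosperm mean log2 intensity was 11.17, 11.10 and 11.62 under CTRL, where the CIPK10 match was lowest, 10.77, 10.92 and 5.62 under MS and 9.39, 5.77 and 10.47 under SS. The CS MS and SS arrays with little endosperm signal, MS replicate 3 and SS replicate 2, were also the lowest of their groups for the CIPK10 match, at 830.8 and 1212.4. In CS_5AL-10 the endosperm mean was 8.64, 10.11 and 10.88 under CTRL, 10.59, 8.20 and 6.99 under MS and 6.71, 11.47 and 7.22 under SS. The SS array with the most endosperm signal had the highest CIPK10 value of this group, 1266.9, whereas the MS array with the least had the highest value of its own, 337.67. The summed green tissue intensity was lower in the CTRL arrays of both bread wheats than in their SS arrays, as the CIPK10 match was. In CS_5AL-10 MS, however, the green tissue sum lay above CTRL while the CIPK10 match overlapped it. Within CS SS, replicate 2 had the highest green tissue sum, 420700, and the lowest CIPK10 value, and replicate 1 the lowest sum, 307400, and the highest CIPK10 value, 2545.1. The part of either marker list in the CIPK results was not tested.

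**Figure D3:**
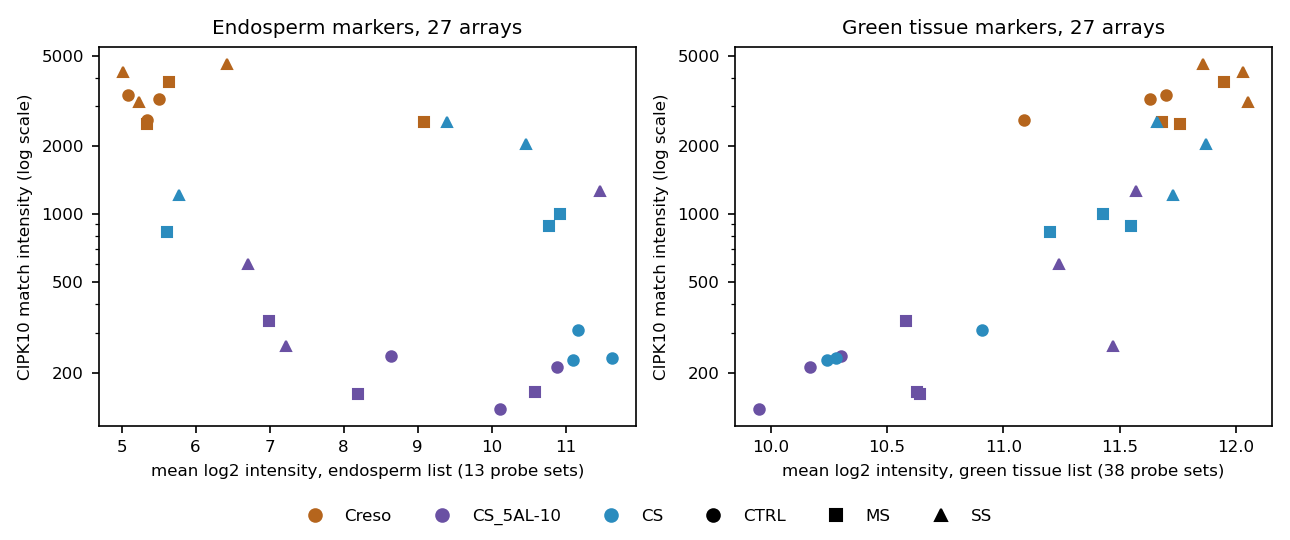
Intensity of the CIPK10 match (log axis) on each of the 27 arrays against the mean log2 intensity of 13 endosperm probe sets (left) and 38 green tissue probe sets (right), by genotype (colour) and treatment (symbol). The CS CTRL arrays lie at an endosperm signal of 11.10 to 11.62 with CIPK10 values of 228.01 to 307.54, while CS_5AL-10 SS replicate 2 lies at 11.47 with 1266.9, and Creso arrays lie at the upper right of the green tissue panel.

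Beside the kinases, 29 probe sets were counted from lists chosen by name, namely CBLs, calcium transport, calcium-binding proteins, PP2Cs and ion transport. Whether these genes act with a CIPK in glumes was not tested. All passed the filter on low values. As 26 of them come from the drought-selected list, their drought counts are no independent evidence of a response. In SS against CTRL plants, 11 were called higher and 10 lower in Creso (4.45% and 2.87% of all tested probe sets), 8 higher and 4 lower in CS_5AL-10 (2.72% and 2.97% of all), and 6 higher and 4 lower in CS (3.61% and 2.26% of all). The medians of the 29 were -0.15, 0.37 and 0.21, beside 0.13, 0.06 and 0.06 over all tested probe sets. The 3 not taken from that list, all for the plasma membrane proton pump H+-ATPase ha1, were called in none of these comparisons.

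The partner of a CIPK is a CBL, and 1 probe set had a CBL name, a match to CBL3, a calcium sensor of the vacuolar membrane in Arabidopsis. It read 2410.6, 2455.4 and 2617.6 in Creso SS, 1539.2, 1888.3 and 2043.6 in CS_5AL-10 SS and 1488.8, 1898.7 and 1676.3 in CS SS, against 1179.3, 1107.6 and 1301.7 in Creso CTRL, 1259.3, 1272.9 and 912.91 in CS_5AL-10 CTRL and 996.75, 794.47 and 869 in CS CTRL. Every SS array lay above every CTRL array of its genotype, as for 15.9% of tested probe sets in Creso, 16.5% in CS_5AL-10 and 17.4% in CS. The log2 difference was 1.18 in Creso, which was called, and 0.74 in CS_5AL-10 and 0.97 in CS, both under the 2-fold limit (SE 0.21 each). Its average difference of CS_5AL-10 from CS was 0.20 (SE 0.12, limma adjusted p = 0.30).

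Of the 2 calcium transport probe sets, a match to a sodium/calcium exchanger family protein with EF-hands rose in SS plants of all 3 genotypes, by 1.38 in Creso, 2.15 in CS_5AL-10 and 1.98 in CS (SE 0.29 each). The other, wheat TPC1, a cation channel of the vacuole in Arabidopsis, rose in Creso SS by 1.05 (SE 0.20). In CS_5AL-10 and CS its differences were 0.92 and 0.33 (SE 0.20 each), which were not called. It read 1809.8, 1103.3 and 1008.4 in CS SS against 994.6, 1008.3 and 1118 in CS CTRL, so that 1 array of the 3 lay apart from the CTRL arrays.

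The 13 calcium-binding probe sets split by direction. In Creso SS plants 4 were higher and 7 lower (4.45% and 2.87% of all tested), in CS_5AL-10 2 and 3 (2.72% and 2.97%), and in CS 3 and 3 (3.61% and 2.26%). All 13 come from the drought-selected list, so these counts are no independent evidence. Both probe sets of an EF-hand protein matched to CCD1, of which the second carries the _s_at ending of probe sets shared by related sequences, fell by 2.35 in Creso SS (SE 0.35 and 0.31). For the first, CS_5AL-10 SS plants were also called lower, by a value of -1.29 (SE 0.35), while the CS value was -0.33. A polcalcin match (ending _x_at), a calcium-binding protein of pollen, fell by 1.55 in Creso SS and had values of 0.14 in CS_5AL-10 and 0.33 in CS. The summed intensity of the 4 drought-selected pollen and anther probe sets, 2 of them polcalcin matches, was 2290 to 2710 on the Creso SS arrays against 5829 to 7373 on the Creso CTRL arrays. The part of pollen RNA was not tested. The 2 probe sets to annexin 1, a calcium-dependent membrane-binding protein, rose together in Creso SS, by 1.26 (ending _a_at) and 1.14 (ending _x_at). Between species, though, they disagreed, with an average of 1.04 in the first and -2.51 in the second for Creso minus CS, so that the annexin 1 difference between the species depends on which probe set is read.

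Of the 8 PP2C probe sets, all drought-selected, 4 were higher and 3 lower in Creso SS plants (4.45% and 2.87% of all tested). In CS_5AL-10 5 were higher and in CS 2 (2.72% and 3.61% of all tested), and none was lower in either bread wheat (2.97% and 2.26% of all tested). The probe set of the P2C-HA match with the largest SS difference, a phosphatase that acts against ABA signalling in Arabidopsis, rose by 1.90 in Creso, 1.78 in CS_5AL-10 and 1.44 in CS (SE 0.30 each). Its other probe set rose by 1.53 in Creso and 1.72 in CS_5AL-10, and its CS value of 0.72 was not called (SE 0.39 each). A putative PP2C rose by 1.94, 1.51 and 1.43 in the same order, and another by 2.0 in CS_5AL-10 SS, with values of 1.10 in Creso and 1.31 in CS that were not called (SE 0.59 each). The latter was dim, with CTRL means of 12.5 in Creso, 28.88 in CS_5AL-10 and 58.17 in CS, all under the lowest array median of 59.1. A further putative PP2C probe set went opposite ways, by -1.22 in Creso and 1.09 in CS_5AL-10, both called, beside 0.84 in CS, which was not (SE 0.30 each). The 2 probe sets of another putative PP2C were called lower in Creso SS alone, by values of -1.41 (SE 0.43) and, with the _s_at ending, -1.99 (SE 0.31). Their values were -0.72 and -0.01 in CS_5AL-10 and -0.30 and -0.03 in CS. The remaining probe set, a PP2C-related match in the UniGene cluster of the other P2C-HA probe set, rose by 1.75 in Creso SS, which was called. Its values of 1.16 in CS_5AL-10 and 0.21 in CS were not called (SE 0.48 each). This probe set was dim, with CTRL means of 68.12 in Creso, 48.53 in CS_5AL-10 and 80.62 in CS. Of the 8 abscisic acid marker probe sets tested (of 11 on the array, dehydrins and 9-cis-epoxycarotenoid dioxygenases among them), 6 were called higher in Creso SS, 6 in CS_5AL-10 SS and 7 in CS SS, beside the 4.45%, 2.72% and 3.61% of all tested probe sets given above, and 0 were called lower. As 7 of the 8 come from the drought-selected list, these counts too are no independent evidence, and the 1 other was called in CS alone.

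Among the 6 ion transport probe sets, a match to the nitrate transporter NTP3 rose by 4.03 in Creso, 2.10 in CS_5AL-10 and 1.64 in CS. A second, putative nitrate transporter fell by 1.09 in CS_5AL-10 and by 1.19 in CS, and its Creso value was -0.71 (SE 0.29 each). No drought difference of the potassium channel match KCO1 was called at SS. It was dim in every Creso array, from 18.163 to 69.93, and bright in CS_5AL-10, from 476.03 to 1443.8, and in CS, from 1419.3 to 1933.5. In CS_5AL-10 its MS arrays, at 476.03 to 657.03, lay below its CTRL arrays at 1202.4 to 1443.8, as for 15.3% of tested probe sets.

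**Figure D4:**
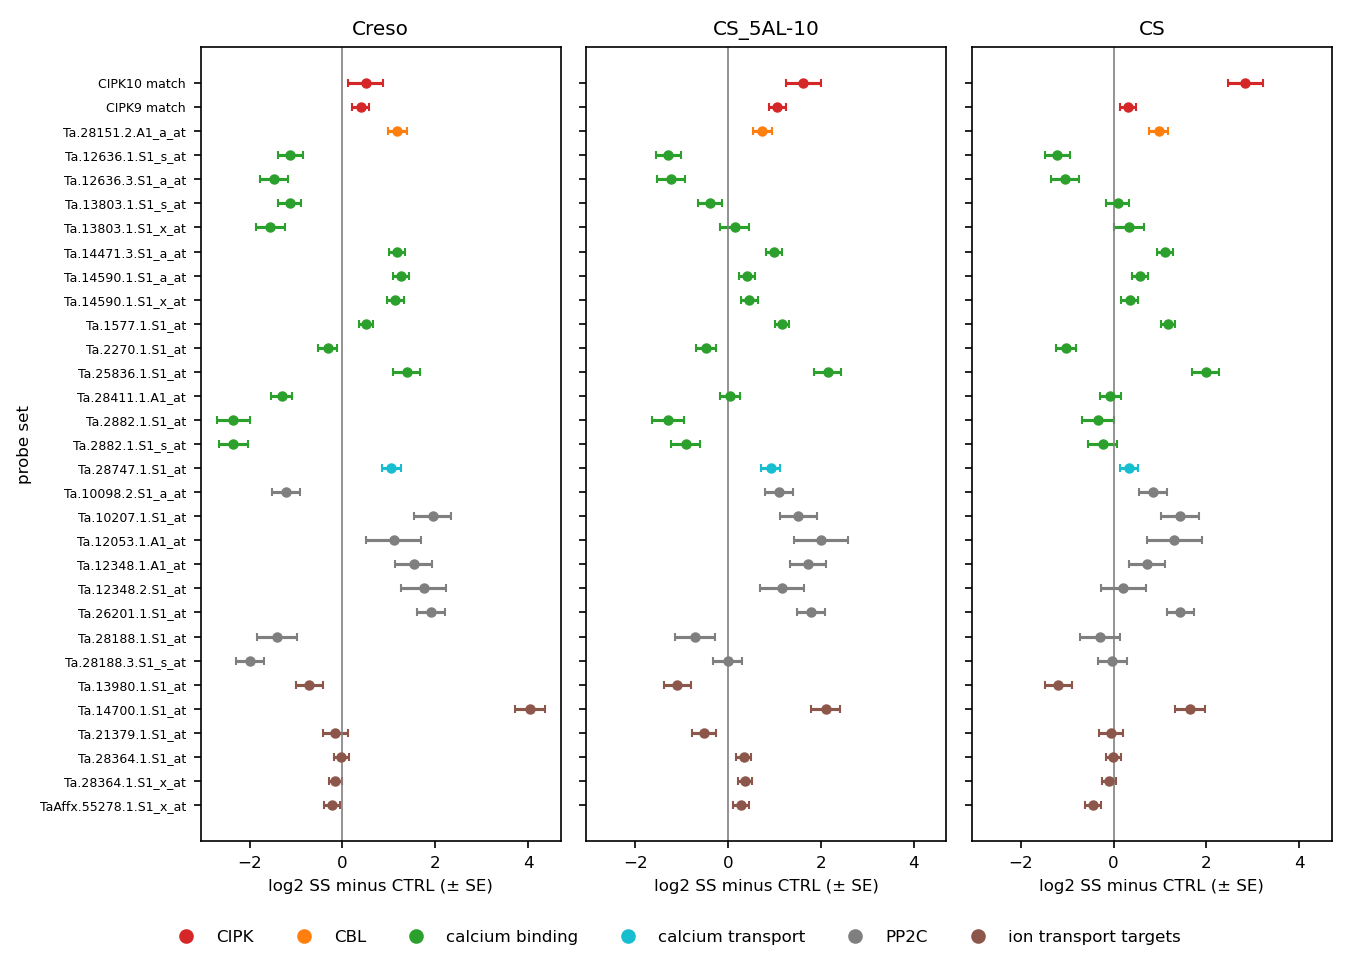
Log2 difference of SS from CTRL with bars of 1 SE for the 2 CIPK probe sets and 29 pathway probe sets in Creso, CS_5AL-10 and CS, coloured by list (the exchanger match, in 2 lists, is drawn as calcium binding). The CIPK10 match is at 2.84 in CS, and the CCD1 matches at -2.35 in Creso.

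Differences averaged over treatments were counted for the same 29 probe sets. Most of these were selected on the stressed arrays, which enter the averages. The counts are therefore no independent evidence of a genotype difference. In CS_5AL-10 against CS, 0 of the 29 were called higher (with 1.28% of all tested) and 4 lower (2.03% of all tested) by limma. With CTRL plants alone 0 were called in either direction, against 5 lower in MS and 1 lower in SS. Of all tested probe sets 1.20%, 2.77% and 1.39% were called lower in CTRL, MS and SS. These 4 lie in 2 UniGene clusters. They were the first and the second CCD1 match (log2 difference -1.14, SE 0.20, and -1.17, SE 0.18) and 2 probe sets of a putative PP2C, the second with the _s_at ending (-1.06, SE 0.25, and -1.53, SE 0.18). As the selection used the stressed arrays, these values are given as a description. The first CCD1 match read 277, 176.93 and 94.094 in CS_5AL-10 MS against 791.58, 812.63 and 425.15 in CS MS. In CTRL it read 694.77, 620.17 and 775.19 in CS_5AL-10 against 996.4, 638.59 and 869.85 in CS, where the arrays overlapped. In Creso against CS, 4 were called higher and 4 lower (13.1% and 14.9% of all tested), and against CS_5AL-10 8 higher and 5 lower (15.9% and 15.1% of all tested). The largest of these in size was the KCO1 match, with -4.57 against CS (SE 0.15), also given as a description.

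**Figure D5:**
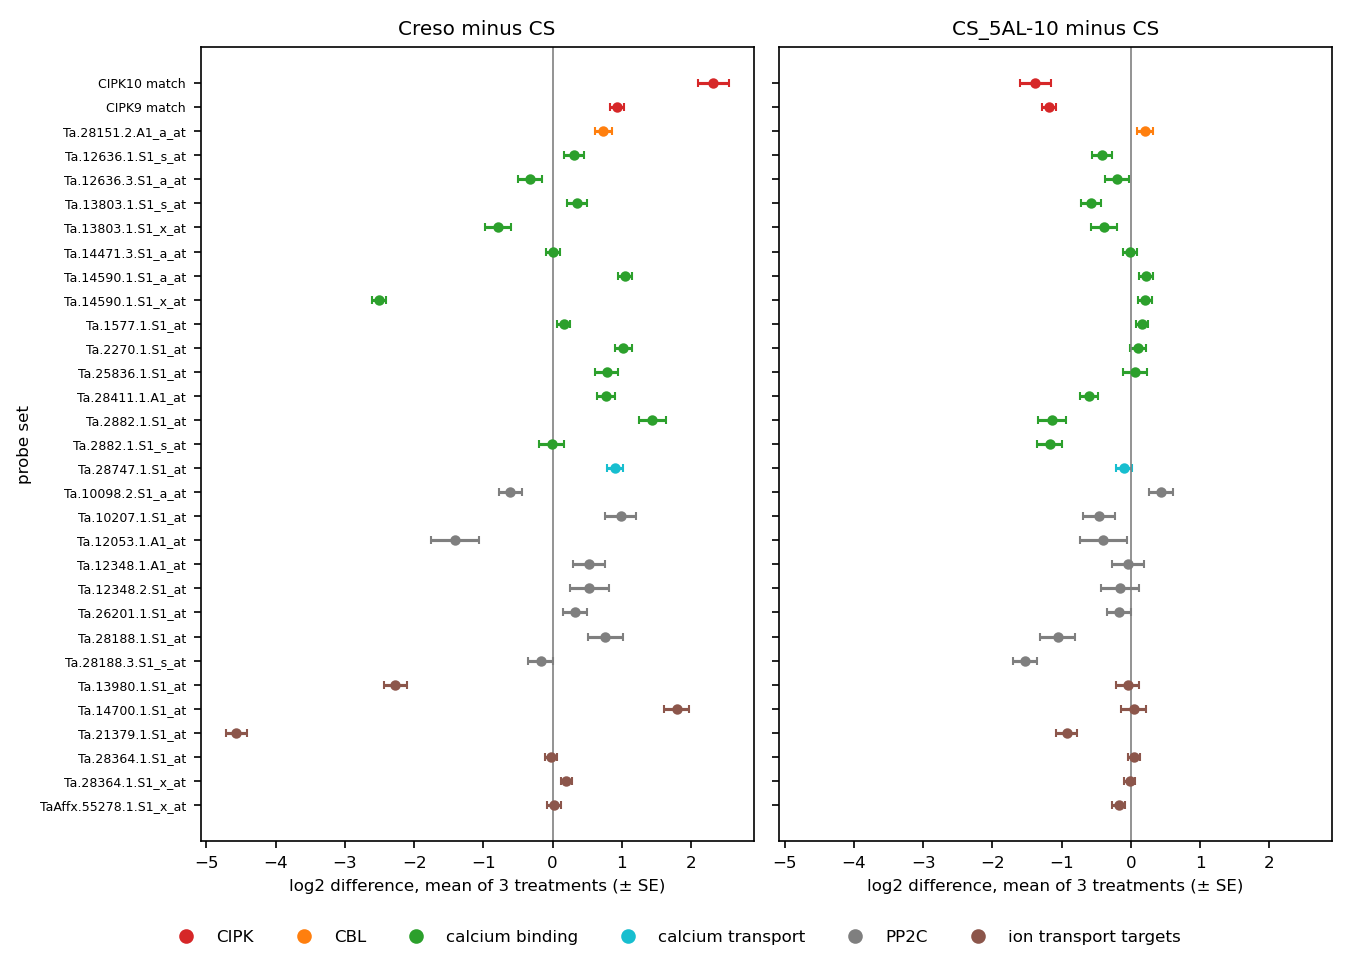
Log2 difference averaged over the 3 treatments, with bars of 1 SE, for Creso minus CS (left) and CS_5AL-10 minus CS (right), for the same probe sets and colours. Both CIPK probe sets lie right of 0 on the left (2.32 and 0.93) and left of 0 on the right (-1.38 and -1.18), whereas the CBL3 match in the third place is at 0.73 and 0.20.

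The probe sets whose pattern was most like that of the CIPK10 match were sought by Pearson's r over the 9 group means. The 10 highest lay between 0.989 and 0.996, and 403 of the 34089 tested probe sets exceeded 0.95, so that this course over the groups was not particular to the CIPK10 match. The points share genotype, treatment and array, and r is a description. Of the 10, 2 had a name. The first was a match to a B-box zinc finger protein, a class of transcription regulators (r = 0.993, and 0.966 over the 27 arrays). Its means were 10740, 10930 and 13120 in Creso CTRL, MS and SS, 1376, 1841 and 3192 in CS_5AL-10 and 2349, 4916 and 6564 in CS. The other was a match to a PQ-loop repeat membrane protein (r = 0.992, and 0.965 over the 27 arrays), with means of 3408, 3124 and 3383 in Creso, 866.8, 1083 and 1255 in CS_5AL-10 and 1067, 1758 and 2698 in CS. The other 8 carry no name in the annotation used, and the one with the highest r over the group means, 0.996, had 0.682 over the arrays. Of the 10, 4 were also among the 10 highest over the 27 arrays. The CIPK9 match, which the study had placed in the same cluster, stood at rank 1062, with r = 0.92 over the group means and 0.87 over the arrays.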

How the data were processed

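The authors deposited 1 table of linear MAS5 intensity values (version not stated) for 61290 probe sets on 27 arrays, whereas the study's own tests used RMA values. The deposited intensity values had a trimmed mean of 500.2 to 500.3 on each array and medians of 59.1 to 99.07. The samples were grouped by the genotype, treatment and replicate in their titles. In 1 field the CS_5AL-10 labels name CS. The 111 manufacturer controls were dropped, values taken to log2(value + 16) and arrays centred on the common median, since the medians differed by 1.68 times. The 34089 probe sets that exceeded the median of each of the 3 arrays in 1 or more groups were fitted with group means over all arrays in limma 3.58.1 (R 4.3.3, variance trend, prior degrees of freedom 5.52). A call needs a Benjamini-Hochberg adjusted p under 0.05 and a difference of at least 2-fold. The code was tested on simulated data. Python 3.11.15, pandas 2.3.3 and matplotlib 3.10.9 were used for annotation and figures.

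The probe sets named follow a rule: the CIPK10 and CIPK9 matches, the CBL probe set, up to 4 probe sets of each other pathway list with the largest SS difference in any genotype, and the 10 most like the CIPK10 match. The annexin 1 probe sets, the other P2C-HA probe set and the PP2C-related probe set fall outside it. So do the putative PP2C with opposite directions and the first probe set of the putative PP2C lower in Creso. All of these were chosen after their values were seen. Probe sets are named by their match, without their array identifiers. The members and lists were chosen with earlier results of these data known, and the list patterns were extended to wheat gene synonyms after the annotation was read. Names are best Arabidopsis matches from the study's drought-selected list or, for 1273 probe sets, the platform's gene symbols (200 of them with a name that is not a locus number). No probe set held a name of the SnRK or CDPK kinase lists. The alternatives were an offset of 1 or 64, no filter or one at the 75th percentile, other centring or none, quantile normalization, fits of only the genotypes compared, the methods' t-test, no fold threshold, the replicate number as a block and leaving out each array. Leaving out 4 arrays by their endosperm signal was chosen after seeing the data.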

Additional observations from a re-analysis of the deposited data

How the results depend on the processing

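The genotype averages of the CIPK10 match kept their direction, and those of Creso their call, under all 10 alternatives of scale, filter, fit and arrays, at 2.08 to 2.40 for Creso minus CS, 3.39 to 3.94 for Creso minus CS_5AL-10 and -1.66 to -1.24 for CS_5AL-10 minus CS, with limma adjusted p of at most 2.2e-08 and 8.9e-11 for the Creso averages. With single arrays left out they were 2.22 to 2.39, 3.52 to 3.88 and -1.56 to -1.20. The p-values of the Creso averages, here and in the fit with a block below, are no independent evidence of a genotype difference, as stated above. The largest shift was in CS_5AL-10 SS against CTRL, at 1.08 to 2.15. The CIPK9 match in CS MS against CTRL, 0.08, was -0.09 without centring and -0.08 after quantile normalization. The methods' t-test with adjusted p called 0 of the 29 pathway probe sets at SS in each genotype (3, 1 and 0 of all 34089 tested), against 21 in Creso, 12 in CS_5AL-10 and 10 in CS by limma, while with an unadjusted p it called 19, 11 and 7 (6.1%, 5.48% and 4.93% of all tested). With single arrays left out limma called 18 to 20, 10 to 12 and 7 to 9, and without the 4 arrays of unusual endosperm signal 21, 12 and 9.

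With the replicate number as a block the CIPK10 averages were 2.32, 3.70 and -1.38 with limma adjusted p of 1.2e-08 and 3.9e-12 for the first 2, and the pathway counts were 21, 12 and 10, the same probe sets as without the block. Deviations of same-numbered arrays correlated at -0.566 to 0.205 (median -0.0286, 6 of 27 over 0.1), and those of differently numbered arrays at -0.317 to 0.516 (median -0.00165). The numbers thus showed no sign of pairing, which does not exclude that same-numbered arrays share a step.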
